A study of Mus musculus with 137 samples.

Results

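Bleomycin, a DNA-damaging drug used to bring on lung fibrosis, was compared with saline in the lungs of young mice 14 days after instillation into the trachea. The libraries were those whose label gives a young mouse, day 14 and either bleomycin or NaCl, which took 10 lung libraries, 5 in each group, or 7.3% of those in the series. All mice were male C57BL/6J, young mice were 8 to 12 weeks old, and the dose was 0.7 mg/kg. The series was made to follow how fibrosis resolves with time and how age alters it. Beside the 10 lungs stood 4 young untreated lungs (day 0), 4 bleomycin and 5 saline young lungs at day 21, and 6 bleomycin and 6 saline lungs of old mice (21 months, 0.63 mg/kg) at day 14. Each library came from 20 mg of lung, and the labels do not say whether every library was a separate mouse. The p-values therefore measure the spread between libraries, taken within all groups of the series.

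After bleomycin the epithelium and the capillaries of the alveoli are injured first, monocytes enter and become macrophages, and fibroblasts then lay down collagen and elastin. Transforming growth factor beta, which integrins release from a latent store in the matrix, is the best known driver of that deposition. In this model the scar builds up over the first weeks and later clears in part. Whole lung was measured, so fewer cells of a type and less RNA per cell cannot be told apart in any value below.

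The 10 libraries held 17965785 to 24903100 assigned reads, and the 4 untreated libraries 21623042 to 24044510. Counts were scaled to counts-per-million values (CPM), and log2 fold changes (± standard error) and adjusted p-values come from edgeR's quasi-likelihood test with Benjamini-Hochberg adjustment over 18396 genes. A gene was called when its adjusted p was under 0.05. The standard error was set by the variation within all 26 groups of the series, and the values of the single lungs show the spread of the groups compared. Lung markers were high in every one of the 10 lungs, with 7767 to 15052 CPM of the surfactant gene Sftpc after bleomycin and 13373 to 15216 after saline.

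A pair of libraries stood apart from their groups. Bleomycin lung 4 lay between the groups, at -4.96 on the first principal component, while the other 4 bleomycin lungs lay at 47.7 to 66.7 and the 5 saline lungs at -44.9 to -40.03. Over the 7847 genes called in a fit without it, its difference from the saline mean had the same sign as that of the other bleomycin lungs for 89.9% of genes, with a median size of 38.4% of theirs on the log2 scale. In the same reckoning the other bleomycin lungs each reached 98.9% to 130.1%. Their values were set against means that held lung 4, which raises them beside the value of lung 4. Untreated lung 3 went against its label: it held 349 CPM of the macrophage elastase Mmp12 against 5.55 to 6.55 in the other untreated lungs, and 429.7 CPM of Spp1 against 122.5 to 133.2. Fold changes and counts that leaving out either library moved by more than 1.5 times are given with and without it.

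**Figure D1:**
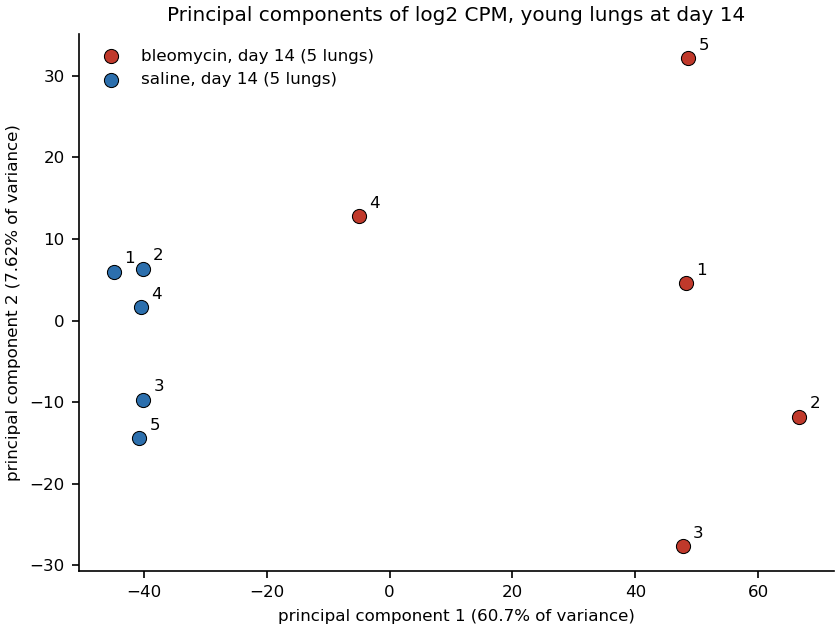
The first and second principal components of log2 CPM over 18396 genes are plotted for the 10 young lungs at day 14, red for bleomycin and blue for saline, with the lung numbers beside the points. Saline lungs lie together on the left, 4 bleomycin lungs lie on the right, and bleomycin lung 4 lies between them at -4.96.

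The comparison of bleomycin with saline asked which transcripts the injured young lung held at day 14. Of 18396 genes 7188 were called (39.1%), 3696 of them higher (20.1%) and 3492 lower (19%). These shares are the background for every count of list members in this comparison. Changes of at least 2-fold were more often rises, with 1027 genes called at least 2-fold higher (5.58%) and 660 called at least 2-fold lower (3.59%). The 5 bleomycin lungs lay wholly above or below the 5 saline lungs for 4972 genes (27%), of which 4444 were also called. The median log2 fold change over all genes was -0.01. Without bleomycin lung 4 the count was 7847 genes, 7081 of them shared with the 7188 and none in the opposite direction.

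Genes of several kinds stood among the larger rises without overlap. Chl1, a neural cell adhesion molecule, stood at 26.4, 64, 28.5, 3.56 and 35.5 CPM in bleomycin lungs 1 to 5 and at 0.552, 0.903, 0.412, 0.747 and 0.517 CPM in saline lungs 1 to 5. Every bleomycin lung was above every saline lung, and lung 4 was the lowest of its group (log2 fold change 5.64 ± 0.73, adjusted p = 4.71e-10). Cemip, which breaks down hyaluronan, stood at 23.7, 86.2, 18.6, 5.25 and 46.7 CPM against 0.736, 0.713, 0.732, 1.44 and 1.39 CPM (5.17 ± 0.68, adjusted p = 6.87e-10). Saa3, an acute phase protein, stood at 38.7, 54.2, 40.4, 6.93 and 47.5 CPM against 1.38, 1.81, 1.56, 1.2 and 1.29 CPM (4.69 ± 0.65, adjusted p = 4.06e-09). In both the groups were far apart, and lung 4 was again the lowest bleomycin lung. The epidermal growth factor receptor ligand Ereg (4.38 ± 0.65), the EGF-repeat gene Megf11 (4.19 ± 0.58), the G protein regulator Rgs16 (3.71 ± 0.45) and the macrophage protein Cd5l (3.87 ± 1.22) also rose without overlap. Without bleomycin lung 2 the log2 fold change was 4.56 for Cemip and, for Ereg, 3.69.

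The larger falls without overlap were as mixed. Igfbp3, which binds insulin-like growth factors, stood at 14.3, 19.5, 23.7, 49.7 and 16.9 CPM in bleomycin lungs and at 118.4, 108.2, 139.1, 133.996 and 158 CPM in saline lungs (-2.404 ± 0.24, adjusted p = 2.52e-14). Cpne5, a copine, stood at 1.72, 1.34, 1.54, 3.18 and 2.12 against 7.54, 9.89, 10.3, 11.6 and 8.27 CPM (-2.26 ± 0.25, adjusted p = 1.99e-12). Cyp1a1, the aryl hydrocarbon receptor's best known target, stood at 1.82, 1.57, 3.26, 4.86 and 0.666 against 10.8, 15.1, 13.9, 14.6 and 11.6 CPM (-2.44 ± 0.52, adjusted p = 6.67e-05). All 5 bleomycin lungs were below all 5 saline lungs in the 3 genes, and lung 4 was the highest of the bleomycin lungs in each. The keratin Krt79 (-2.75 ± 0.40), the transcription factor gene Hes2 (-2.68 ± 0.39), the amino acid transporter gene Slc7a10 (-2.07 ± 0.40) and Colq, which anchors acetylcholinesterase (-2.06 ± 0.39), fell as well. Without bleomycin lung 4 these were -3.57 ± 0.45 for Krt79, -3.55 ± 0.43 for Hes2, -2.700 ± 0.43 for Slc7a10 and -2.98 ± 0.41 for Colq.

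**Figure D2:**
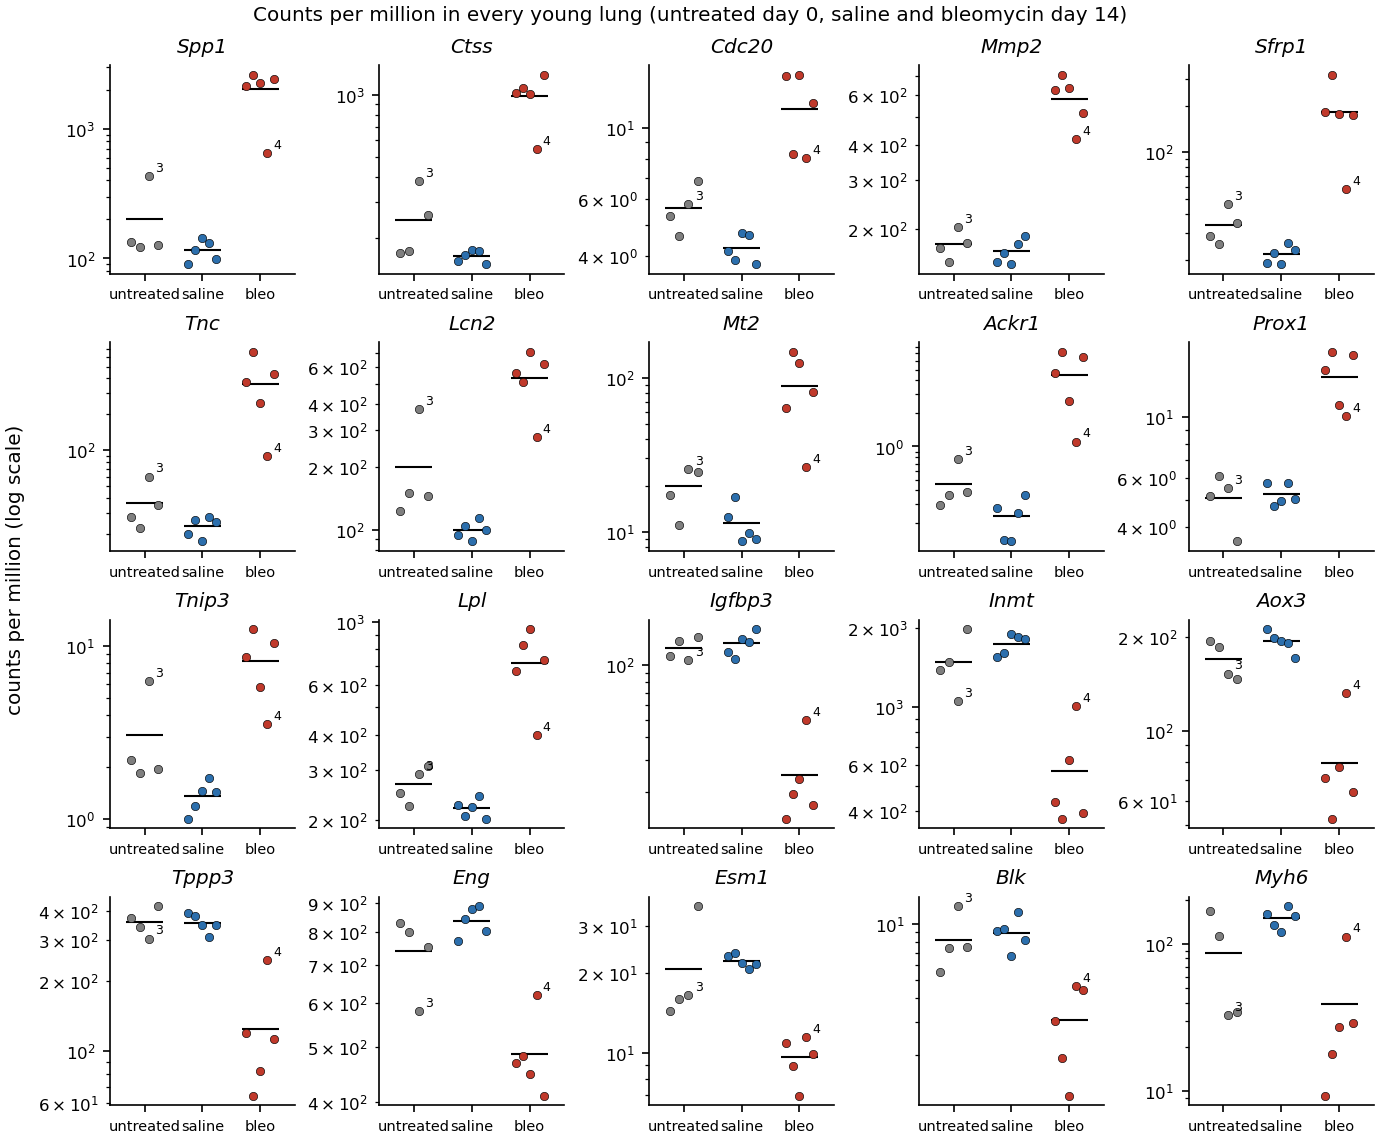
CPM values on a log scale are plotted for 20 genes in each of the 4 untreated (grey), 5 saline (blue) and 5 bleomycin (red) young lungs, with bars at the group means. The number 4 marks the bleomycin lung that lay between the groups and the number 3 the untreated lung that went against its label. The 20 genes were picked among those with large changes or small p. In every panel all 5 bleomycin lungs lie on 1 side of all 5 saline lungs, which held for 27% of all genes.

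The scar matrix was described by 5 lists of genes. Of 11 fibrillar collagen genes, which form the tension-bearing fibres, 8 rose and none fell, with a median log2 fold change of 1.68 against -0.01 for all genes. The minor fibrillar collagen Col5a2, which starts the fibres, stood at 696, 1182, 580.0, 262 and 709 CPM against 144.9, 163, 154, 158 and 173 CPM (2.11 ± 0.29, adjusted p = 4.15e-09), and Col24a1 rose from a saline range of 0.413 to 0.92 to a bleomycin range of 1.44 to 7.99 CPM (3.096 ± 0.47). The cartilage collagens Col2a1 and Col11a2 and the fibrillar Col27a1 were not called. Of 25 other collagens 12 rose and 5 fell. Col28a1, a collagen of peripheral nerve basement membranes, rose most clearly, from a saline range of 3.17 to 4.49 to a bleomycin range of 10.1 to 51.4 CPM (3.03 ± 0.32, adjusted p = 3.73e-13), while the microfibril collagen Col6a1 rose by 0.93 ± 0.14 and the vascular Col15a1 by 1.98 ± 0.31. Among the 5 that fell were the transmembrane collagens Col13a1, Col17a1 and Col23a1.

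Basement membrane genes rose in 17 of 21 cases and fell in none (median 0.59). Col4a1, whose chains make the sheet under epithelium and endothelium, stood at 3373, 3855, 3604, 1812 and 3081 CPM against 1118, 1287, 1193, 1339 and 1280.1 CPM (1.34 ± 0.18, adjusted p = 8.42e-10). The groups did not overlap, and the change of Col4a1 was smaller than that of the fibrillar Col5a2 in all 5 lungs. Of 18 elastic fibre genes 14 rose, Fbn1 of the microfibrils by 1.68 ± 0.25 and Efemp2, needed for elastin assembly, by 0.75 ± 0.11, and Ltbp4 alone fell. Of 20 matricellular genes, whose products sit in the matrix and signal to cells, 14 rose and 4 fell (Vtn, Tnxb, Ccn3 and Thbs3). Periostin, Postn, was at 420.1 to 538 CPM after bleomycin and 429 to 505 CPM after saline and was not called (-0.02 ± 0.10, adjusted p = 0.873).

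Among 20 proteoglycan genes 11 rose and 3 fell. The small leucine-rich proteoglycan Fmod, which binds collagen fibrils, stood at 58.4, 114.7, 67.1, 20.1 and 69.2 CPM against 8.28, 9.37, 12.4, 11.9 and 11.3 CPM (2.63 ± 0.39, adjusted p = 3.43e-08). Its relatives Podn (1.35 ± 0.17) and Bgn (1.07 ± 0.15) rose too, Omd and Ogn fell, and decorin, Dcn, was not called. Of 14 hyaluronan genes 8 rose and none fell, among them the synthase Has2, from a saline range of 0.31 to 0.903 to a bleomycin range of 1.3 to 19 CPM (3.74 ± 0.52, adjusted p = 3.73e-09), with Has1 and Has3 not called. Of 25 genes for collagen processing 14 rose and 3 fell. P4ha3, a prolyl hydroxylase subunit, stood at 19.2, 33.6, 17.8, 5.78 and 20.3 CPM against 1.2, 1.66, 1.24, 1.94 and 1.7 CPM (3.64 ± 0.50, adjusted p = 3.16e-09), and Adamts2, which trims procollagen, rose by 1.68 ± 0.20, whereas P4ha1 fell and the collagen chaperone Serpinh1 was not called.

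Genes that take matrix apart rose beside those that lay it down. Of 17 metalloproteinase genes 9 rose and 3 fell. Mmp2, which cleaves type IV collagen and gelatin, stood at 624, 709.6, 636, 418 and 517 CPM against 153, 164, 149.7, 177 and 189 CPM (1.803 ± 0.19, adjusted p = 1.50e-13), and its membrane activator Mmp14 at 271, 363, 252, 136.6 and 296 against 68.7, 78, 68.7, 80.2 and 86 CPM (1.79 ± 0.21, adjusted p = 5.96e-12). Mmp9, Mmp15 and Mmp28 fell. Of 5 inhibitor genes Timp1 rose most, from a saline range of 4.8 to 6.28 to a bleomycin range of 15 to 143.5 CPM (3.74 ± 0.45, adjusted p = 5.03e-11), Timp2 (0.28 ± 0.08) and Timp3 also rose, and the membrane-anchored inhibitor Reck fell from a saline range of 101.9 to 117.3 to a bleomycin range of 56.3 to 78.1 CPM (-0.72 ± 0.11, adjusted p = 2.83e-08). Adamts4, an aggrecanase that also cleaves versican, stood at 30.2, 46, 26.4, 6.45 and 32.5 CPM against 3.22, 3.9, 2.43, 3.04 and 2.01 CPM (3.27 ± 0.45, adjusted p = 3.49e-09), 1 of 13 rises among 20 ADAM and ADAMTS genes. Of 16 cathepsins and their relatives, proteases of the lysosome, 13 rose and none fell (median 1.11), with Lgmn at 1.66 ± 0.15 and Ctsb at 1.59 ± 0.15. Of 25 genes of plasminogen activation and coagulation 17 rose and 4 fell. The protein C receptor gene Procr rose by 1.305 ± 0.16 and the protease inhibitor gene Tfpi2 by 1.897 ± 0.27, while the anticoagulant genes Thbd and Proc fell. The fibrinogen chain gene Fgb, also among the 4, had no reads in bleomycin lungs and 0.149 ± 0.334 CPM in saline lungs (mean ± SD, n = 5), a spread larger than its mean.

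Within TGF-beta signalling the ligand and activation genes rose and the receptor genes split. Of 14 ligand and activation genes 12 rose and none fell (median 0.77). Inhba, which makes activin A, stood at 6.84, 22.7, 7.31, 1.78 and 11.4 CPM against 1.15, 1.14, 1.19, 0.946 and 0.982 CPM (3.195 ± 0.50, adjusted p = 1.33e-07). The 3 TGF-beta genes rose by less, Tgfb1 by 0.41 ± 0.08, Tgfb2 by 0.74 ± 0.13 and Tgfb3 by 0.87 ± 0.14, and the integrin genes Itgb6, Itgb8 and Itgav, whose products release the latent ligand, rose as well. Of 15 receptor and SMAD genes 4 rose and 5 fell. The signalling receptors Tgfbr1 (0.66 ± 0.09) and Tgfbr2 (0.61 ± 0.09) were among the rises. Eng, the endothelial co-receptor, stood at 469, 484, 448, 619 and 410.5 CPM against 772, 844, 879, 889.8 and 803 CPM and fell (-0.79 ± 0.15, adjusted p = 7.30e-06), together with Acvrl1 and the inhibitory Smad7. Of 14 target genes 11 rose and 1 fell (median 1.42), with fibronectin, Fn1, at 3997, 7445, 3821, 1255 and 4115 CPM against 548, 578, 531, 740.2 and 656 CPM (2.76 ± 0.35, adjusted p = 3.15e-10).

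The BMP branch of the family showed falls in some of its ligand, receptor and SMAD genes. Of 13 such genes 6 fell and 1 rose, and without bleomycin lung 4 the list's median was -0.01. Bmp3 fell from a saline range of 94.5 to 112.3 to a bleomycin range of 48.5 to 83.4 CPM (-0.76 ± 0.12, adjusted p = 6.47e-08) and Smad9 from a saline range of 19.4 to 21.9 to a bleomycin range of 7.47 to 16.3 CPM (-1.01 ± 0.17, adjusted p = 3.68e-07), while Smad1 rose by 0.42 ± 0.07. Of 11 antagonist genes 6 rose and 4 fell: noggin, Nog, went from a saline range of 0.19 to 0.458 to a bleomycin range of 1.06 to 3.91 CPM (2.85 ± 0.38) and Fstl1 from a saline range of 142.4 to 160.0 to a bleomycin range of 225 to 729 CPM (1.66 ± 0.23), and Bambi, Chrdl1 and Twsg1 were among the falls. Of 7 target genes Smad6 (-1.05 ± 0.21), Hey1 (-0.63 ± 0.15) and Atoh8 fell, Id2 rose (0.40 ± 0.12), and Id1, Id3 and Id4 were not called. With so few target genes the list's median of -0.30 rests on single genes.

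Other developmental pathways changed gene by gene. Of 14 WNT ligand genes 5 rose, including the epithelial Wnt7b (1.14 ± 0.18) and the non-canonical Wnt5a (1.01 ± 0.17), and 3 fell, including Wnt2b (-1.21 ± 0.20) and Wnt2 of alveolar fibroblasts. Of 12 secreted WNT inhibitor genes 6 rose and Wif1 fell. Sfrp1 stood at 181, 318, 177, 57.7 and 174 CPM against 19.1, 22.3, 18.8, 25.8 and 23.2 CPM (3.06 ± 0.32, adjusted p = 1.50e-13), and Frzb, at under 1 CPM in each saline lung, reached 0.818 to 8.22 CPM (4.11 ± 0.69). Among 12 WNT target genes Ccn4 (1.704 ± 0.29), Ccnd1 (0.52 ± 0.08) and Myc rose, and Axin2, Lef1, Znrf3 and Tnfrsf19 (-0.54 ± 0.10) fell. In the hedgehog pathway the transcription factor genes Gli1 (0.62 ± 0.15) and Gli2 (0.49 ± 0.16) rose and the receptor gene Ptch1 fell by a small amount (-0.29 ± 0.11, adjusted p = 0.0213). The Ptch1 call was lost without bleomycin lung 2 or 3 (adjusted p = 0.0904 and 0.0517). Of 16 Notch genes 9 fell, among them the endothelial ligand Dll4, from a saline range of 112.3 to 123.3 to a bleomycin range of 58.7 to 86.7 CPM (-0.70 ± 0.12, adjusted p = 8.10e-07), and 1 rose, Heyl, a target in mural cells (0.68 ± 0.14).

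Growth factor genes went both ways within each family. Of 19 PDGF and FGF genes 6 rose and 7 fell. Pdgfc, a ligand of the fibroblast receptor, stood at 11.3, 23.2, 13.5, 6.5 and 13.1 CPM against 3.36, 3.28, 3.39, 3.54 and 2.89 CPM (2.03 ± 0.24, adjusted p = 7.94e-12), and the epithelial receptor Fgfr2 fell from a saline range of 212 to 231 to a bleomycin range of 93.1 to 198 CPM (-0.74 ± 0.12, adjusted p = 2.33e-07), together with its ligands Fgf7 and Fgf10. Igf1, a growth factor made by macrophages and fibroblasts, stood at 153, 181, 117.2, 58 and 158 CPM against 22.3, 28.1, 18.6, 22.3 and 25.1 CPM (2.52 ± 0.30, adjusted p = 3.15e-11). Of 23 EGF, IGF and HGF genes 9 rose, the EGF receptor ligands Areg, Ereg and Hbegf among them, and 7 fell, Igf1r, Met and Erbb4 among them. Of 19 VEGF and angiopoietin genes 10 fell, including Vegfa (-0.38 ± 0.08), its receptor Kdr (-0.84 ± 0.15) and Tek, and 5 rose, including Pgf, from a saline range of 3.68 to 6.37 to a bleomycin range of 7.12 to 22.1 CPM (1.72 ± 0.25, adjusted p = 1.06e-08).

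Markers of fibroblast states parted. Of 20 genes of fibrotic fibroblasts 17 rose and 1 fell (median 1.98), and of 15 genes of inflammatory fibroblasts 14 rose and none fell (median 2.296). Lcn2, which sequesters iron-loaded siderophores, stood at 563, 508, 711, 278 and 621 CPM against 94.2, 104.8, 88.1, 114.1 and 100.02 CPM (2.42 ± 0.29, adjusted p = 5.41e-11). Members such as Lcn2 and Hp of the inflammatory list, and Spp1 and Pdpn of the fibrotic list, are also on lists of other cell types. The share of each cell type was not tested. Of 20 genes of alveolar fibroblasts, the resting fibroblasts of the alveolar wall, 13 fell and 3 rose. Inmt, a methyltransferase, stood at 434, 374, 624, 1005 and 394 CPM against 1556, 1607, 1907, 1849.6 and 1824 CPM (-1.63 ± 0.25, adjusted p = 4.67e-08), and Fgfr4 fell by 1.15 ± 0.20 on the log2 scale. The lipid droplet gene Plin2 of the same list rose (0.93 ± 0.13), with its highest value, 372 CPM, in bleomycin lung 3. Of 18 adventitial genes 7 fell and 4 rose: the actin-severing Gsn stood at 1678, 1522, 2173, 2641 and 1291 CPM against 3618, 3694, 3671, 3753 and 3633 CPM (-0.98 ± 0.17), Igfbp6 fell (-1.07 ± 0.20) and Cd34 rose (0.68 ± 0.11). Contractile genes were mostly not called. Acta2, smooth muscle actin, was at 196, 268, 172, 131.5 and 218 CPM after bleomycin and 197, 211, 172, 173 and 161 CPM after saline, the groups overlapped, and it was not called (0.11 ± 0.19, adjusted p = 0.683). Of 18 genes of smooth muscle 5 fell, including Synm (-1.11 ± 0.19) and Mylk (-0.39 ± 0.09), and Cald1 rose (0.46 ± 0.13), a call lost without bleomycin lung 2 (adjusted p = 0.0515). Of 16 pericyte genes 5 fell, including the nitric oxide receptor genes Gucy1a1 (-0.49 ± 0.11) and Gucy1b1 (-0.44 ± 0.09), and 4 rose.

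**Figure D3:**
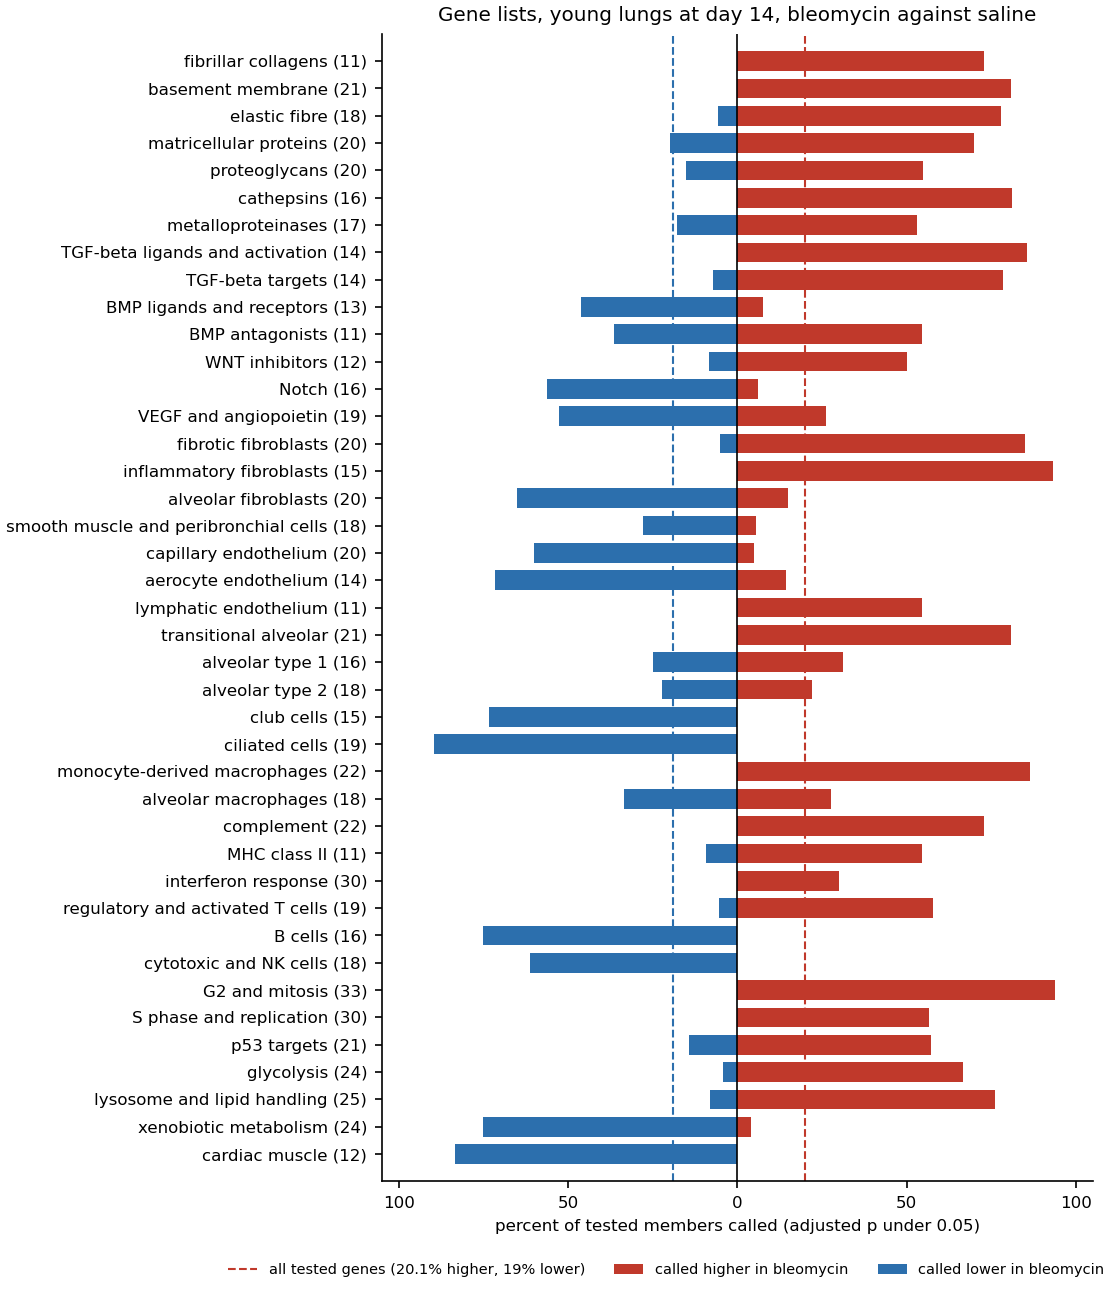
For 41 gene lists the percent of tested members called higher (red, to the right) and called lower (blue, to the left) in bleomycin lungs is plotted, with the number of tested members in brackets and dashed lines at the shares over all genes, 20.1% higher and 19% lower. Matrix, monocyte-derived macrophage and mitosis lists reach to the right, and airway, capillary, B cell and xenobiotic lists reach to the left. The alveolar macrophage list reaches both ways.

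Epithelial genes changed by compartment. Of 21 genes of the transitional state through which alveolar type 2 cells pass toward type 1 cells, 17 rose and none fell (median 0.84). Clu, an extracellular chaperone, stood at 476, 471, 472, 324 and 522 CPM against 176, 199, 186, 205 and 186 CPM (1.25 ± 0.14, adjusted p = 6.35e-12), and Tnip3, an inhibitor of NF-kappaB signalling, at 8.66, 12.5, 5.82, 3.56 and 10.4 against 1.01, 1.19, 1.46, 1.74 and 1.45 CPM (2.57 ± 0.30, adjusted p = 6.24e-12). The groups did not overlap in either gene. Alveolar type 1 and type 2 lists were close to the background, with 5 of 16 type 1 genes higher and 4 lower, and 4 of 18 type 2 genes higher and 4 lower. Without bleomycin lung 4 the count of type 2 genes called lower was 7. The type 1 gene Pdpn rose (0.89 ± 0.16) while Ager, at 2491, 2232, 2531, 2227 and 2351 CPM against 2034, 2255, 2122, 1855 and 2244 CPM, was not called (0.17 ± 0.16, adjusted p = 0.405). The collectin Sftpd stood at 1286, 1007, 1422, 1166 and 1199 CPM against 775, 789, 784, 801 and 739.7 CPM and rose (0.65 ± 0.14, adjusted p = 8.27e-05), although Sftpc, Sftpb and Abca3 were not called and Sftpa1, Lamp3 and Slc34a2 fell. Sftpc was lowest in bleomycin lung 2, at 7767 CPM against 11257 to 15052 in the other 4.

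Airway genes fell. Of 15 club cell genes 11 fell, of 19 ciliated cell genes 17 fell, and none of either list rose. Scgb1a1, the club cell secretoglobin, had the largest change in CPM of any gene, 8825, 6466, 6209, 12279 and 9757 CPM against 20539, 20535, 17401, 15281 and 13746 CPM (-1.01 ± 0.23, adjusted p = 1.74e-04). Tppp3, a tubulin polymerization protein of ciliated cells, stood at 119.2, 64.3, 82.2, 246 and 112.7 CPM against 391, 382, 348, 307 and 348 CPM (-1.51 ± 0.24, adjusted p = 2.56e-07). Bleomycin lung 4 held the highest value of its group in both and lay nearer to the saline lungs than the other 4. Foxj1, the ciliated cell regulator, overlapped between the groups, and its fall (-0.67 ± 0.23, adjusted p = 0.0136) was lost without bleomycin lung 2 (adjusted p = 0.0644). Basal cell genes that mark the dysplastic repair seen after severe injury, Krt5, Krt14 and Trp63, were not called. Krt17 rose (adjusted p = 0.0169) but stayed at or under 1.21 CPM in every bleomycin lung, and its call was lost without bleomycin lung 5 (adjusted p = 0.127).

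Endothelial genes of the alveolar capillaries fell in most cases, and those of lymphatics rose in part. Of 20 capillary genes 12 fell and 1 rose, and of 14 aerocyte genes, which mark the large gas-exchange capillary cells, 10 fell and 2 rose. Clec14a, an endothelial lectin, stood at 263, 236, 339, 377 and 234 CPM against 492, 480.1, 512, 498 and 470.1 CPM (-0.76 ± 0.13, adjusted p = 7.04e-07), and the 1 capillary list gene that rose was the lipoprotein lipase gene Lpl, at 668, 829, 942, 398 and 735 against 226, 208, 222, 243 and 203 CPM (1.697 ± 0.19, adjusted p = 4.69e-12). Lpl is made by macrophages too. Of 20 arterial and venous genes 8 rose, 3 fell and 9 were not called (median 0.07). Ackr1, the chemokine receptor of venules, stood at 4.69, 7.23, 2.56, 1.11 and 6.49 CPM against 0.276, 0.143, 0.137, 0.249 and 0.362 CPM (4.22 ± 0.50, adjusted p = 2.53e-11), Selp of the same list rose, and the arterial kinase gene Bmx fell (-0.87 ± 0.12). The venous genes Nr2f2 and Ephb4 were not called. Of 11 lymphatic genes 6 rose and none fell (median 0.89). Prox1, the regulator that sets lymphatic identity, stood at 14.9, 17.3, 11, 10.1 and 16.8 CPM against 5.75, 4.75, 4.94, 5.78 and 5.06 CPM (1.41 ± 0.23, adjusted p = 3.20e-07), and Mmrn1 (0.90 ± 0.16) rose with it. The lymphatic markers Lyve1 and Flt4 were not called. Of 14 genes of systemic and sprouting vessels 5 rose and 8 fell, the tip cell gene Esm1 from a saline range of 20.7 to 23.7 to a bleomycin range of 6.94 to 11.5 CPM (-1.195 ± 0.19, adjusted p = 1.69e-07).

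Genes of macrophages that arise from monocytes rose in 19 of 22 cases and fell in none (median 2.14). Trem2, a lipid-sensing receptor, stood at 64.1, 70.7, 69.7, 31.6 and 73.1 CPM against 3.91, 4.94, 4.07, 4.53 and 4.39 CPM (3.82 ± 0.28, adjusted p = 1.44e-21), and the cathepsin Ctss at 1026, 1081, 1015, 543 and 1254 against 156, 167, 176, 174 and 149.7 CPM (2.58 ± 0.22, adjusted p = 1.80e-17). Lung 4 was the lowest bleomycin lung in both and still more than 3 times the highest saline lung. Of 22 genes for Fc receptors and uptake 19 rose and none fell, with the scavenger receptor Msr1 at 40.4, 58.5, 45.4, 18.9 and 62.5 CPM against 3.82, 3.57, 2.88, 4.33 and 3.87 CPM (3.61 ± 0.37, adjusted p = 6.16e-14). The complement receptor gene C3ar1 rose from a saline range of 4.28 to 7.42 to a bleomycin range of 21.9 to 60.1 CPM (3.02 ± 0.25, adjusted p = 1.46e-18), 1 of 16 rises and no fall among 22 complement genes. Of 25 genes for lysosomal lipid handling 19 rose and 2 fell (Pltp and Nr1h3), with Psap at 1.44 ± 0.15. Genes of resident alveolar macrophages split, 5 of 18 higher and 6 lower: the proton pump subunit Atp6v0d2 rose (1.53 ± 0.19) and the integrin Itgax rose (1.29 ± 0.16), whereas Siglecf, at 15.5, 11.8, 12.4, 20.3 and 13.8 CPM against 22.9, 23.3, 22.3, 24.5 and 15.9 CPM, fell (-0.56 ± 0.15, adjusted p = 0.00116) with overlap, and their regulator Pparg was not called (0.27 ± 0.13). Larger falls on that list were those of Fabp1 (log2 fold change -3.41), Krt79 (-2.75) and Cidec (-1.84). Without bleomycin lung 4 these were -4.58 ± 0.52 for Fabp1, -3.57 ± 0.45 for Krt79 and -2.53 ± 0.41 for Cidec.

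The promoters of Trem2 and Ctss show the letters GAGGAAG, a core that the myeloid transcription factor PU.1 binds, in RefSeq windows of 300 bases on GRCm38.p6, from 250 before to 50 after the start of the gene. Capitals mark the match, which lies on the reverse strand in both. The windows are chr17:48346151-48346450 on the plus strand for Trem2 and chr3:95526536-95526835 on the plus strand for Ctss.
Trem2: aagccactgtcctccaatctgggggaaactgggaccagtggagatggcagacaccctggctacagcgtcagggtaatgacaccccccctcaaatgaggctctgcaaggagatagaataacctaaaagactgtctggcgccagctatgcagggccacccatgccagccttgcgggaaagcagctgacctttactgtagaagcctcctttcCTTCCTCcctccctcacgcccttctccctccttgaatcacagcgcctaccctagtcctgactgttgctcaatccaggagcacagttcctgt
Ctss: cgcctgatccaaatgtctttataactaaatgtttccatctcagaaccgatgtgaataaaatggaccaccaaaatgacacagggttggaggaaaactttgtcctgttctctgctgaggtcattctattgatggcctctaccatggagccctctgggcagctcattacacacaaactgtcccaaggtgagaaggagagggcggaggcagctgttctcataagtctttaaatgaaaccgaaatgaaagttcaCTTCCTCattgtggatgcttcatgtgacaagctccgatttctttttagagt
Of 17 genes of monocyte-derived macrophages with a window, Trem2 among them, 7 held these letters on either strand, 41.2%, against 13.5% of all 12877 tested genes with a window, 15.7% of the genes called higher and 11.4% of those called lower. Of 11 cathepsin genes with a window, the list that holds Ctss, 3 held them (27.3%), and of 16 genes for Fc receptors and uptake 5 did (31.25%). A match describes the letters and is no measure of binding.

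Signals that draw and feed leukocytes rose in part. Of 32 chemokine ligand genes 16 rose and 3 fell. Cxcl16 stood at 161, 177, 118.2, 104.1 and 183 CPM against 70.05, 75.5, 72.5, 74.4 and 74.1 CPM (1.02 ± 0.11, adjusted p = 2.38e-12), and Ccl9 (2.42 ± 0.29) and the monocyte attractant Ccl12 (2.65 ± 0.32) rose too, while Cxcl5, Ppbp and Cx3cl1 fell. Of 31 interleukin and cytokine genes 12 rose and 3 fell, with the interleukin 6 family members Lif (1.99 ± 0.25) and Il11 (2.05 ± 0.33) and the interleukin 1 receptor antagonist Il1rn (1.43 ± 0.23) among the rises and Il1b and Tnf not called. The shared receptor gene Osmr rose (1.09 ± 0.13), as did Tnfrsf1b (1.13 ± 0.14) and Il4ra (0.91 ± 0.12). Interferon response genes were nearer to the background, with 9 of 30 higher and none lower: the chemokine Cxcl10 rose from a saline range of 1.39 to 1.99 to a bleomycin range of 3.95 to 13.5 CPM (2.31 ± 0.38), and Irf7 and Ifit3 were not called. The interferon-stimulated response element stood in 14 of 22 windows of that list, against 3.15% of all tested genes and 3.59% of those called higher.

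Genes of B cells and natural killer cells fell, and genes of activated T cells rose. Of 16 B cell genes 12 fell and none rose (median -1.32). Blk, a B cell kinase, stood at 3.01, 1.92, 1.21, 4.67 and 4.45 CPM against 9.11, 9.37, 6.73, 11.5 and 8.16 CPM (-1.54 ± 0.42, adjusted p = 0.0021). Of 18 genes of cytotoxic and natural killer cells 11 fell and none rose, the killer cell receptor Klre1 from a saline range of 2.76 to 4.23 to a bleomycin range of 0.885 to 2.7 CPM (-1.29 ± 0.36, adjusted p = 0.00239). Of 20 T cell genes 2 fell, among them Lef1 (-0.71 ± 0.24), which is high in naive cells, and Cd3e was not called (-0.56 ± 0.37). Of 19 genes of regulatory and activated T cells 11 rose and Gata3 fell. The activation receptor Tnfrsf9 stood at 6.22, 7.87, 4.57, 2.79 and 7.87 CPM against 1.24, 0.761, 1.19, 0.897 and 0.723 CPM (2.59 ± 0.40, adjusted p = 1.12e-07), and Havcr2, also made by macrophages and dendritic cells, rose by 1.27 ± 0.17. Plasma cell genes differed by gene: Sdc1 rose (0.46 ± 0.10), an epithelial gene too, and Pou2af1 fell (-1.21 ± 0.39).

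Other leukocyte lists were split. Of 20 dendritic cell genes 9 rose, the actin bundler Fscn1 by 1.74 ± 0.19 and the regulator Batf3 by 1.65 ± 0.24, and 2 fell, including Siglech of plasmacytoid cells (-1.57 ± 0.33). Of 11 MHC class II genes 6 rose, Cd74 from a saline range of 838 to 1067 to a bleomycin range of 1346 to 1854 CPM (0.75 ± 0.16), and H2-Ob fell. Of 16 MHC class I genes 2 rose, H2-D1 (0.38 ± 0.12) and H2-K1 (0.37 ± 0.15, adjusted p = 0.0374). The H2-K1 call was lost in 7 of 15 alternative fits, and class I genes share near-identical sequence, so reads may have been split between them. Of 17 neutrophil genes 2 rose (Lcn2, made by epithelium as well, and Mmp8) and 3 fell; the defining S100a8 was at 15.2, 11.8, 48.9, 31.8 and 19.4 CPM against 77.9, 42, 20.01, 44.8 and 37 CPM and was not called (-0.80 ± 0.45, adjusted p = 0.158), but passed without bleomycin lung 3 (adjusted p = 0.0499). Of 16 genes of eosinophils, basophils and mast cells 6 fell, including the IgE receptor chain Fcer1a, which lay at 0 to 0.125 CPM after bleomycin against 0.149 to 0.598 CPM after saline.

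Cell division genes rose as a block. Of 33 genes of G2 and mitosis 31 rose and none fell (median 1.91), and of 30 genes of S phase 17 rose and none fell (median 0.51). Cdc20, which activates the ligase that starts anaphase, stood at 14.5, 8.28, 14.6, 8.04 and 11.9 CPM against 4.14, 3.9, 4.72, 4.63 and 3.77 CPM (1.44 ± 0.18, adjusted p = 2.13e-10). Cenpf, a kinetochore protein, stood at 11.9, 6.47, 13.9, 6.07 and 8.78 against 1.52, 1.24, 1.83, 1.1 and 1.55 CPM (2.699 ± 0.36, adjusted p = 1.32e-09), and Cdk1, the mitotic kinase, at 7.66, 5.6, 7.69, 2.98 and 8.28 against 1.52, 0.523, 0.778, 0.747 and 0.672 CPM (2.91 ± 0.39, adjusted p = 1.64e-09). The groups did not overlap in any of the 3, and bleomycin lung 2, which had the most Col1a1 and Fn1 of the 5, was the second lowest of the bleomycin lungs in Cdc20, Cenpf and Cdk1, above lung 4. In S phase the cyclin gene Ccne1 rose (2.06 ± 0.41), as did the replication gene Gins2 (1.404 ± 0.24), and Pcna, Mcm2 and Mcm7 were not called.

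The promoters of Cdk1, Cdc20 and Cenpf carry the letters CCAAT, the site of the factor NF-Y, and TTTGAA, the cell cycle genes homology region (CHR) at which late cell cycle genes are held silent in resting cells. They are printed because these 3 genes had the smallest p in the mitosis list. The RefSeq windows are chr10:69352863-69353162, chr4:118437294-118437593 and chr1:189688037-189688336 of GRCm38.p6, all on the minus strand, and capitals mark both sets of letters on either strand.
Cdk1: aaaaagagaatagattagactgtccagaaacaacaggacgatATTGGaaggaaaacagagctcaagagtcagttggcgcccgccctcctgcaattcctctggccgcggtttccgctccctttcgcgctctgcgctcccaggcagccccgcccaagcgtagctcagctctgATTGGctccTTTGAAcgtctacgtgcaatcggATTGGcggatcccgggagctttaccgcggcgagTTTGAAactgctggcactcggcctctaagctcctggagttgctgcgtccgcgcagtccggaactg
Cdc20: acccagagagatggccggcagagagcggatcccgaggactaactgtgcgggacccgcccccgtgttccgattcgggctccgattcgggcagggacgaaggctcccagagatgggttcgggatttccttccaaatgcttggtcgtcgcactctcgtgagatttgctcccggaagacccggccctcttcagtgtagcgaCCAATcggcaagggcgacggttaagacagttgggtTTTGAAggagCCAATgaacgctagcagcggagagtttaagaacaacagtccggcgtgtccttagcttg
Cenpf: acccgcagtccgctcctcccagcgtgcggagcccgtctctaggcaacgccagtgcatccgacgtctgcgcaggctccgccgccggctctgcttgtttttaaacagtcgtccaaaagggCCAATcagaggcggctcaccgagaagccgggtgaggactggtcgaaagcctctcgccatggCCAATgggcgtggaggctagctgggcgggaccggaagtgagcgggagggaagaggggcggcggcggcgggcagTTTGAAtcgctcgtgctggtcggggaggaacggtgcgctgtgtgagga
Cdk1 held 3 CCAAT and 2 TTTGAA matches, and Cdc20 and Cenpf held 2 and 1 each. Of 27 mitosis genes with a window 20 held TTTGAA (74.1%), against 12.7% of all tested genes with a window and 3 of 24 S phase genes. CCAAT stood in 19 mitosis and 17 S phase windows, against 37.8% of all. The E2F letters TTTNGCGC stood in 8 of 24 S phase windows and 1 mitosis window, against 2.17% of all.

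Genes of the damage and stress responses rose in part. Of 21 p53 target genes 12 rose and 3 fell (median 0.34). Cdkn1a, the cyclin-dependent kinase inhibitor p21, stood at 631, 766, 726, 530.2 and 540.0 CPM against 327, 322, 342, 314 and 402 CPM (0.90 ± 0.15, adjusted p = 2.60e-07), and Ccng1 at 468, 514, 465, 396 and 456 against 258, 254, 254, 234 and 292 CPM (0.83 ± 0.11, adjusted p = 1.14e-09). Lung 4 was the lowest bleomycin lung in both, by a narrow margin below lung 5 in Cdkn1a. Of 23 genes of the oxidative stress response 11 rose and 6 fell. The metallothionein Mt2, which binds zinc, stood at 63.6, 147.1, 123.7, 26.5 and 80.3 CPM against 12.6, 17, 8.7, 9.81 and 8.99 CPM (2.95 ± 0.34, adjusted p = 7.64e-12), Hmox1, which breaks down heme, rose by 1.44 ± 0.18 and Srxn1 by 0.72 ± 0.09, while Nqo1 and Gclc were not called and Cat, Sod1 and Gstp1 fell. The unfolded protein response genes Hspa5, Ddit3 and Atf4 were not called. Of 28 secretory pathway genes 6 rose, P4hb by 0.44 ± 0.08, and 1 fell. Those rises were near the share over all genes, 20.1%. Of 13 heat shock genes 3 fell. Hspa1a was at 7.51, 9.39, 6.8, 7.94 and 6.95 CPM after bleomycin and 10.5, 22.1, 62.5, 12.6 and 10.5 CPM after saline (-1.62 ± 0.54, adjusted p = 0.0121), and without saline lung 3, which held the highest value, it was not called (adjusted p = 0.231). Hsph1 was lost in the same way (adjusted p = 0.109).

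Enzymes that handle foreign compounds fell. Of 24 genes 18 fell and 1 rose (median -0.95). Aox3, an aldehyde oxidase, stood at 70.8, 52.6, 76.9, 131.9 and 64 CPM against 212, 198, 194, 192 and 171 CPM (-1.29 ± 0.17, adjusted p = 1.43e-09), and the flavin monooxygenase Fmo1 at 192, 194, 282, 304 and 159 against 484, 456, 505, 490.2 and 486 CPM (-1.097 ± 0.17, adjusted p = 1.10e-07). Cyp4b1, shared with the club cell and aerocyte lists, fell by 1.21 ± 0.20 on the log2 scale. The 1 gene that rose was Blmh, bleomycin hydrolase, which inactivates the drug, at 54.8, 56.8, 52.5, 49.4 and 61.5 CPM against 42.7, 47.8, 45.7, 45.2 and 46.4 CPM (0.27 ± 0.08, adjusted p = 0.00439). Several of these genes mark club cells, whose list fell as well, and the share of each was not tested.

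Genes of energy and biosynthesis changed by small amounts. Of 24 glycolysis genes 16 rose and Ldhb fell (median 0.30), with Pkm at 502, 583, 514, 375 and 578 CPM against 344, 359, 342, 349 and 343 CPM (0.55 ± 0.10, adjusted p = 7.24e-06). Of 28 genes of the citric acid cycle and oxidative phosphorylation 6 rose and none fell, none by more than Cox5a (0.55 ± 0.15). The rises were near the 20.1% called higher over all genes. Of 7 mitochondrially encoded respiratory chain genes tested, mt-Nd6 (-0.71 ± 0.15) and mt-Nd2 (-0.57 ± 0.15) fell and none rose. Their mean log2 CPM was 9.36 to 9.73 over the bleomycin lungs and 9.79 to 9.93 over the saline lungs, with no overlap. The share of mitochondrial transcripts is also read as a sign of RNA quality, and its part in the other results was not tested. Proline synthesis, which feeds collagen, showed a rise of Aldh18a1 (0.75 ± 0.14) and a fall of the proline-degrading Prodh (-0.70 ± 0.12), and Psat1 of serine synthesis rose from a saline range of 9.06 to 13.7 to a bleomycin range of 15 to 26.1 CPM (1.12 ± 0.17, adjusted p = 1.15e-07). Of 23 genes for fatty acid and surfactant lipid synthesis 7 fell, including Acly (-0.40 ± 0.08) and Acaca (-0.40 ± 0.09), and 3 rose. Of 23 cholesterol synthesis genes 6 fell, including the regulator Srebf2 (-0.36 ± 0.08), and 4 rose. Both counts of cholesterol genes were near the shares over all genes, 19% lower and 20.1% higher. Of 18 hypoxia response genes 4 rose and 7 fell: Ankrd37 stood at 16.7, 41.9, 21.9, 7.94 and 23.2 CPM against 3.22, 3.76, 3.43, 3.04 and 2.63 CPM (2.79 ± 0.36, adjusted p = 2.93e-10) and Hif1a rose (0.71 ± 0.11), while Vegfa and Egln1 fell.

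Markers of tissue around the airways and vessels moved with the groups. Of 12 cardiac muscle genes, which in mouse lung are known from the muscle sleeve of the pulmonary veins, 10 fell and none rose (median -1.47). Myh6 stood at 9.33, 18, 27.4, 112.6 and 29.2 CPM against 162, 134.4, 120.8, 182 and 156 CPM (-1.94 ± 0.58, adjusted p = 0.00505), and lung 4 lay near the saline lungs. Without lung 4 the Myh6 change was -2.84 ± 0.65. The 4 untreated lungs, at 167, 114.6, 32.8 and 34.6 CPM, spanned values of both groups. Of 11 fat genes 7 fell, Cidec from a saline range of 14.1 to 21.3 to a bleomycin range of 2.45 to 12.9 CPM (-1.84 ± 0.38, adjusted p = 3.82e-05), and 10 fell without bleomycin lung 4, when Cidec changed by -2.53 ± 0.41. Cidec is also on the list of resident alveolar macrophages, and the share of each source was not tested. Of 9 cartilage genes 4 rose and 2 fell, of 11 skeletal muscle genes 2 rose and 1 fell, and of 12 genes of nerve and Schwann cells 3 rose and 4 fell. The cartilage gene Chad fell (-1.42 ± 0.31) and Hapln1 rose (2.08 ± 0.42). None of 9 red blood cell genes was called. The part of the tissue piece in these values was not tested.

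Some clock genes differed between the groups. Arntl stood at 22.6, 24.7, 40.7, 30.8 and 23 CPM against 51.8, 51.3, 53.4, 52.7 and 42.5 CPM (-0.83 ± 0.13, adjusted p = 1.98e-07), its partner Npas2 at 7.51, 6.3, 17.6, 11.7 and 7.33 against 23.8, 26, 20.6, 20.9 and 17.7 CPM (-1.11 ± 0.22, adjusted p = 3.14e-05), and the repressor Bhlhe41 rose (1.13 ± 0.16). Dbp, which peaks opposite Arntl, was at 30.7, 21, 5.68, 37.7 and 30.3 CPM against 5.75, 7.8, 7.05, 14.5 and 32.9 CPM and was not called (adjusted p = 0.0592), with bleomycin lung 3 low and saline lung 5 high against their groups. Without saline lung 5 it was called (adjusted p = 0.00223), and likewise without bleomycin lung 3 (adjusted p = 0.0154). Among 18 clock genes 5 fell and 1 rose, while over all genes 19% were called lower and 20.1% higher. The hour at which each lung was taken is not in the labels, and its part in the results was not tested.

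Calls were also counted by the annotated type of gene. Of 15424 protein-coding genes 42.9% were called, 3541 higher and 3072 lower. Of 518 long intergenic RNA genes 30.9% were called, 37 of them higher, and of 566 antisense genes 29 higher and 97 lower, with median log2 fold changes of -0.21 and -0.23. Of 263 processed pseudogenes 15 rose and 10 fell (9.51% called). The strand setting of the counting is not given in the sources used here, so reads of an antisense gene and of its partner may not have been told apart.

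**Figure D4:**
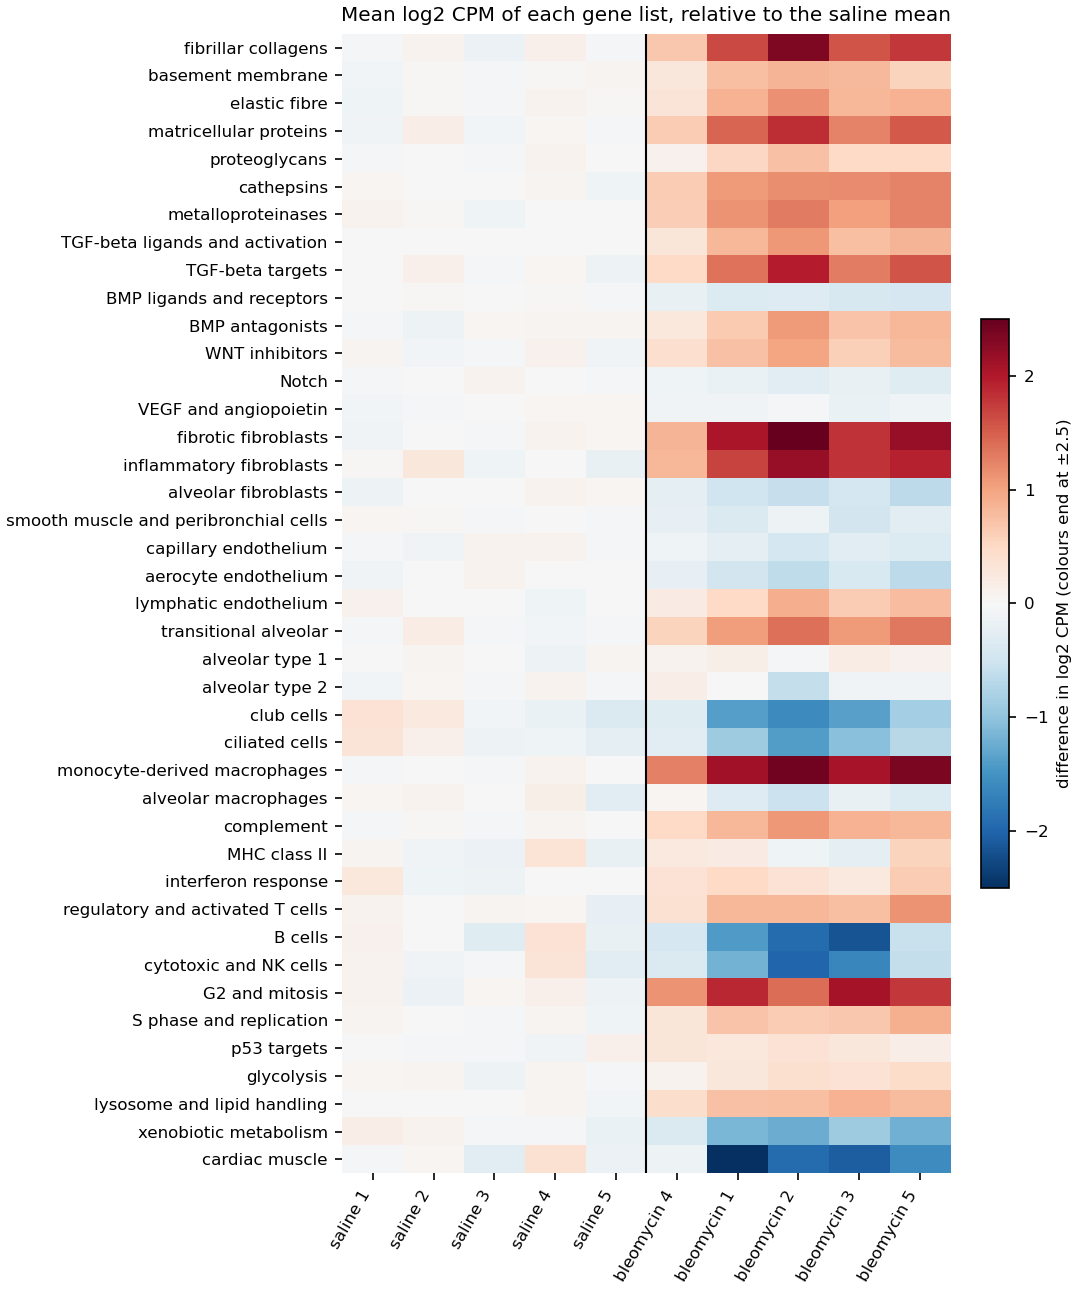
Colours give the mean log2 CPM of each of 41 gene lists in every lung minus the mean of the 5 saline lungs, from blue (lower) to red (higher), with bleomycin lung 4 drawn first among the bleomycin lungs. Lung 4 is pale in most rows, lung 2 is the strongest in the matrix rows and weaker than lungs 1, 3 and 5 in the mitosis row, and lungs 2 and 3 are the lowest in the B cell and natural killer rows.

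The 5 bleomycin lungs differed from each other in an order that depended on the genes. As the mean log2 CPM of a list relative to the saline mean, fibrillar collagens stood at 1.65, 2.34, 1.58, 0.68 and 1.76 in bleomycin lungs 1 to 5, and fibrotic fibroblast genes at 2.04, 2.62, 1.81, 0.85 and 2.17. Lung 2 was highest and lung 4 lowest in both. Mitosis genes stood at 1.88, 1.39, 2.08, 1.13 and 1.76, where lung 3 was highest and lung 2 was above lung 4 alone. B cell genes stood at -1.41, -1.92, -2.15, -0.41 and -0.55, where lungs 5 and 4 were nearest to saline, and ciliated cell genes at -0.89, -1.39, -1.04, -0.26 and -0.70. Macrophage genes derived from monocytes stood at 2.11, 2.404, 2.06, 1.26 and 2.34, which made them the list in which lung 4 was farthest from the saline lungs among the 41 plotted. P53 target genes stood at 0.27, 0.36, 0.28, 0.30 and 0.17, and there lung 4 did not stand below the others. With 5 lungs these orders are a description and were not tested.

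Saline lungs at day 14 were also set against the untreated lungs of day 0. Instillation, time and the tissue piece taken cannot be told apart in that comparison. Of 18396 genes 0.712% were called, 0.0109% (2 genes) higher and 0.701% lower in saline lungs at day 14. Without untreated lung 3 the count was 21, 1 higher and 20 lower, and 20 genes were called both ways. Among the 20 lower without it were the skeletal muscle genes Acta1 (-7.48 ± 1.26) and Myh8 (-8.82 ± 1.38). The mesothelial genes Wt1 (-1.30 ± 0.28) and Bnc1 (-1.18 ± 0.27) were lower too. The mean log2 CPM of mesothelium genes was 5.38 to 5.95 in all 4 untreated lungs and 4.21 to 5.05 in saline lungs. A fit of the 9 lungs alone with edgeR called 0, with 1451 genes at an unadjusted p under 0.05. DESeq2 on the same 9 lungs called 81. In the 3 other untreated lungs Mmp2 was at 153 to 178 CPM, beside 149.7 to 189 in saline lungs, Ctss at 170.3 to 260.2 CPM beside 149.7 to 176, and Tppp3 at 339.8 to 419 CPM beside 307 to 391. In these 3 genes, which were picked, the bleomycin lungs lay outside those 3 untreated lungs as well. Lists differed when all 4 untreated lungs were taken. The mean log2 CPM of fibrillar collagens was 5.28 to 6.94 in bleomycin lungs and 4.37 to 4.87 in untreated lungs. Ciliated cell genes overlapped, at 3.02 to 4.14 and 3.62 to 4.62, as did club cell genes, at 6.06 to 7.34 and 6.67 to 7.88.

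The change of the bleomycin effect from day 14 to day 21 was tested as a difference of differences between the groups of 5 and 5 lungs and of 4 and 5 lungs. It was called for 4 genes (0.0217%), Tollip, Sult1a1, Slc25a34 and Myrip, all with a lower fold change at day 21, and at an unadjusted p under 0.05 there were 1250. Myrip, a motor adaptor gene, stood at 37.5, 41, 84.4, 27 and 23.4 CPM after bleomycin and 23.9, 25.9, 28.4, 22.2 and 24.7 CPM after saline at day 14, with lung 3 far above the rest and overlap between the groups, while day 21 gave 21.3, 25.6, 18.6 and 19.2 CPM after bleomycin against 29.9, 34.8, 28.2, 25.6 and 33.9 CPM after saline (difference -1.29 ± 0.28, adjusted p = 0.0433). With edgeR, 0 genes were called when bleomycin lung 2 or 3 or saline lung 1, 2, 4 or 5 of day 14, or bleomycin lung 1 or 4 or saline lung 1, 2, 3 or 5 of day 21, was left out alone, with 927 to 1221 genes at an unadjusted p under 0.05. DESeq2 on the groups compared, with no lung left out, called 75. Medians of lists were 1.17 for mitosis at day 21 beside 1.91 at day 14, and 1.57 for inflammatory fibroblasts beside 2.296. No single gene of either list was called for the difference.

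The effect at day 14 in old lungs, given a lower dose per weight, was set against that in young lungs. In old lungs 55.7% of genes were called, beside 39.1% in young lungs at day 14 and 36.3% in young lungs at day 21, from groups of different size. The difference was called for 18 genes (0.0978%), 9 higher (0.0489%) and 9 lower (0.0489%) in old lungs, and 3292 had an unadjusted p under 0.05. Opcml, a neural adhesion molecule, stood at 5.89, 5.31, 4.24, 2.74 and 3.7 CPM in young bleomycin lungs against 1.66, 1.33, 1.69, 1.44 and 1.6 CPM in young saline lungs (1.495 ± 0.26), and at 2.08, 2.45, 1.33, 1.93, 3.03 and 1.0 against 2.81, 2.5, 1.66, 2.05, 2.62 and 2.35 CPM in old lungs (difference -1.73 ± 0.34, adjusted p = 0.019). Every young bleomycin lung was above every young saline lung in Opcml. Pstk, a selenocysteine kinase, fell in young lungs (-0.48 ± 0.10) and differed in the old by 0.67 ± 0.14 (adjusted p = 0.0215). Leaving out single lungs moved edgeR's count between 0 (without young saline lung 3, young bleomycin lung 2 or old bleomycin lung 6, with 2843, 2989 and 1412 genes at an unadjusted p under 0.05) and 586, with the highest counts without old bleomycin lung 1, 3 or 5. DESeq2 on the groups compared, with no lung left out, called 4. B cell genes had a median of -0.41 in old and -1.32 in young lungs, and natural killer genes -0.20 and -1.14, with no member of either list called for the difference.

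**Figure D5:**
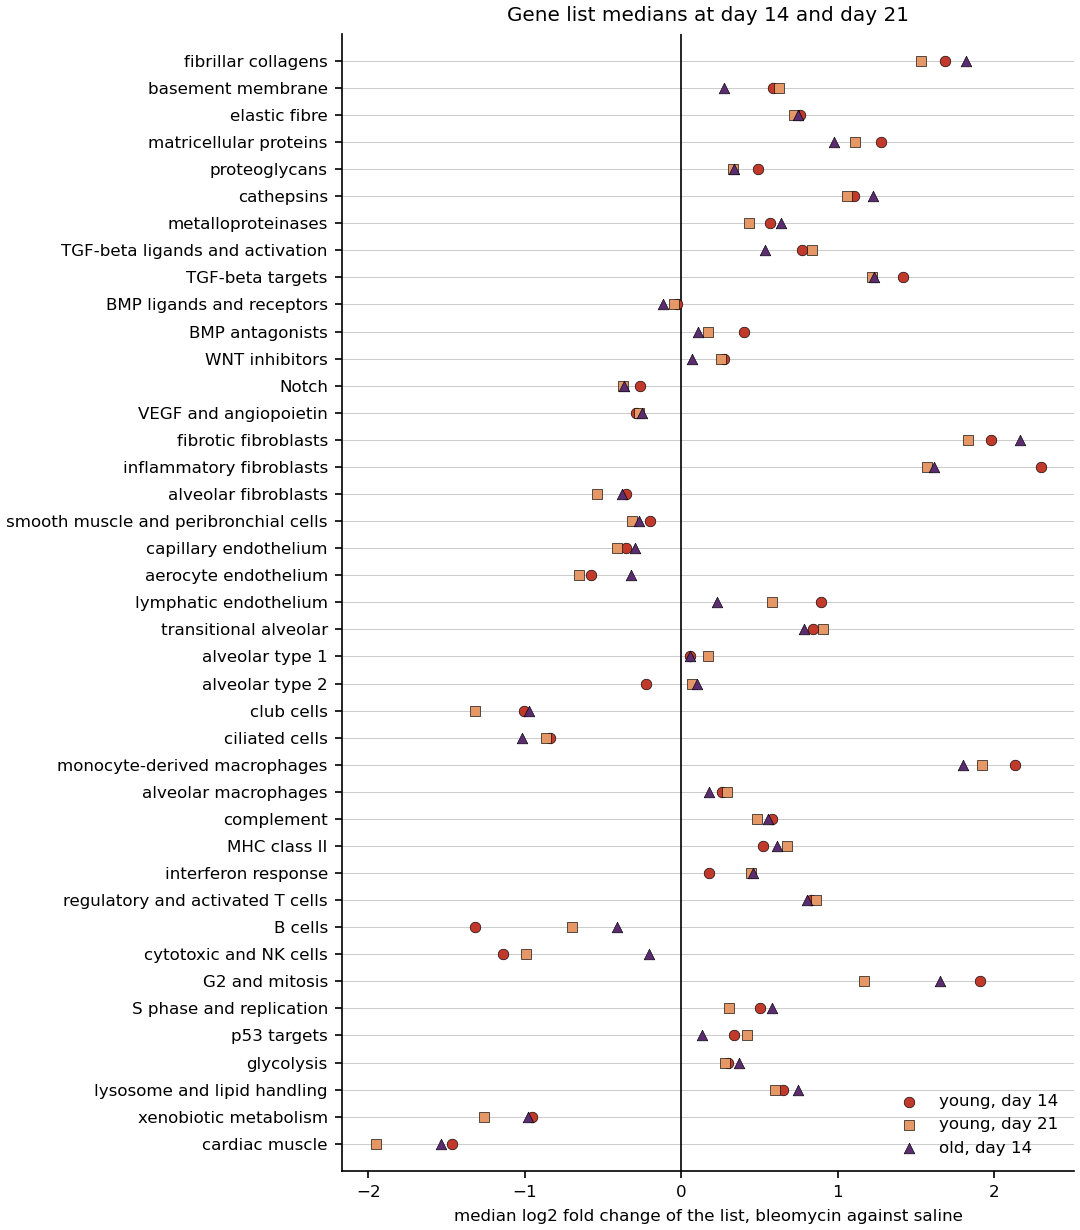
The median log2 fold change of bleomycin against saline is plotted for 41 gene lists in young lungs at day 14 (red circles), young lungs at day 21 (orange squares) and old lungs at day 14 (purple triangles), without error bars because no test was made of a list. The medians of a list lie close together for most matrix lists and farther apart for B cells, natural killer cells and mitosis.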

How the data were processed

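Poly-A libraries (TruSeq mRNA) of mouse lung were sequenced, per the labels' protocols. The authors deposited a table of raw read counts per gene for every library of the series. The submitters' processing notes name bcl2fastq 2.20.0.422, STAR 2.5.2 and 2.5.2b, featureCounts 1.5.1, RSEM 1.3.0 and FastQC 0.11.5, and the builds GRCm38, GRCh38 and hg38, with no roles, and the strand setting is not given in the sources used here. Of 48794 genes 36251 had at least 1 read, and symbols came from the GENCODE M21 annotation.

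Genes were kept by edgeR's filterByExpr (minimum count 10, minimum total 15), which left 18396. Counts were scaled by TMM, and edgeR 4.0.16 (R 4.3.3) fitted 1 coefficient per group over all 26 groups (robust quasi-likelihood, 111 residual degrees of freedom). Standard errors were taken from the size of the log2 fold change over the root of the F statistic. Principal components used log2 CPM with a prior count of 2. The 10 libraries of the comparison held 17965785 to 24903100 counts. The fit was tested on simulated data.

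The genes printed are a fixed panel, 15 rises and 15 falls, the largest by log2 fold change among annotated genes called with no overlap of the groups and an average log2 CPM above 1, up to 3 members of each of 96 lists by smallest p, and up to 5 genes each way for the differences between effects. Within these, the text names a selection, and list members named without values come from the lists' calls. Fgb was singled out after its values were seen. Some genes of the rule are not reported here. The members and lists were chosen with earlier results of these data known, and lists were given no test. Groups came from the labels. Alternatives were RLE scaling, no filter, the groups of a comparison alone, DESeq2 1.42.0 on the groups of a comparison alone, and leaving out each lung. A fit of the 10 lungs alone without bleomycin lung 4 was added after seeing the data. Promoter windows came from RefSeq (GRCm38.p6), for 12877 of the 18396 genes.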

Additional observations from a re-analysis of the deposited data

Results flagged for a closer look

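Of 175 groups of 4 to 6 lungs whose values the text gives, 17 held a lung whose gap to its nearest neighbour took up most of the group's range. Chance marks about 1 group in 20. Bleomycin lung 4 stood apart on the first principal component (-4.96), in Trem2 (31.6 CPM) and Clu (324 CPM), where it was the lowest bleomycin lung, and in Igfbp3 (49.7 CPM), Myh6 (112.6 CPM) and Cidec (12.9 CPM), where it was the highest. In all 6 it lay on the saline side of the other bleomycin lungs. Bleomycin lung 3 was the highest of its group in Myrip (84.4 CPM) and Plin2 (372 CPM), and bleomycin lung 5 in Krt17 (1.21 CPM).

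Among saline lungs, lung 5 was lowest in Arntl (42.5 CPM) and Siglecf (15.9 CPM), lung 4 highest in Cd74 (1067 CPM), lung 3 highest in Hspa1a (62.5 CPM) and lung 1 highest in Cdk1 (1.52 CPM) and lowest on the first principal component (-44.9). Untreated lung 3 was far above the other untreated lungs in Mmp12 (349 CPM) and Spp1 (429.7 CPM).

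The bleomycin effect differed between day 21 and day 14, by the test of the difference itself, in Tollip (-0.29 on the log2 scale), Sult1a1 (-1.13), Slc25a34 (-2.09) and Myrip (-1.29). Between old and young lungs at day 14 it was lower in old lungs for Opcml (-1.73), Hecw1 (-2.697), Slco2b1 (-0.74), Sh3bgrl2 (-0.61) and Aldh9a1 (-0.34), and higher for Pstk (0.67), Srsf3 (0.58), Snrnp48 (0.48), Tiprl (0.39) and Gmcl1 (0.38). Those genes are the 5 with the smallest p each way among the protein-coding genes called. When edgeR was fitted to the groups compared alone, 0 genes were called for either difference.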

How the results depend on the processing

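The count of 7188 genes for bleomycin against saline stayed within 1.5 times under the alternatives run: 7195 with RLE scaling, 6420 without the filter, 7779 with the 10 lungs alone, 8025 with DESeq2, 5992 to 7847 with each lung left out, and 8973 with the 10 lungs alone without bleomycin lung 4, chosen after seeing the data. No call changed direction in these fits. The other counts moved. For day 21 minus day 14 (4 genes) edgeR called 0 without the filter and 0 with the groups alone (1736 and 1764 at an unadjusted p under 0.05), DESeq2 75, and 0 to 30 with lungs left out, the most without bleomycin lung 4 of day 14 (30) or lung 5 (25). For old minus young (18) there were 3 without the filter, 0 with the groups alone (1735 at an unadjusted p under 0.05) and 4 with DESeq2, and 0 to 586 with lungs left out: 516, 586 and 512 without old bleomycin lung 1, 3 or 5, 69 without old saline lung 3, and 41 and 42 without young bleomycin lung 4 or 5. For saline against untreated (0.712% of genes) there were 0 with the groups alone (1451 at an unadjusted p under 0.05), 81 with DESeq2, and 21 to 178 with lungs left out, the fewest without untreated lung 3. The cause was not tested. Without bleomycin lung 4 the counts of falls went from 4 to 7 for alveolar type 2 cells, 3 to 5 for chemokine receptors, 1 to 3 for WNT inhibitors, 0 to 2 for complement and for MHC class I, 0 to 1 for interferon response and for oxidative phosphorylation, and 1 to 2 for ADAM proteases, glycolysis, hedgehog and skeletal muscle. For eosinophils, basophils and mast cells 1 rose and 9 fell in place of 0 and 6, and for clock genes 3 rose in place of 1. No paired analysis was possible because lungs were numbered in accession order, and such numbers pair no lungs. Counts near 0, as for Krt17 and Fcer1a, limit what depth can show.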

Other observations

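Further gene lists were counted in the same comparison. Of 18 genes linked to cell senescence, the lasting arrest of division, 13 rose and 1 fell (median 0.83), among them the arrest gene Cdkn1a (0.90 ± 0.15) and, as the fall, Igfbp3. Members of that list such as Timp1 and Mmp12 are held by other lists too. Its mean log2 CPM was 4.73 to 5.57 over the bleomycin lungs and 4.07 to 4.25 over the saline lungs, with no overlap. Of 27 cytokine receptor genes 14 rose and 3 fell (median 0.43), and of 22 chemokine receptor genes 8 rose and 3 fell. Of 26 integrin genes 13 rose and 4 fell, with the laminin receptor chain Itga7 at 1.53 ± 0.18 and the leukocyte chain Itgb2 at 1.33 ± 0.17. Of 17 genes of interstitial macrophages 10 rose and 5 fell, with Mrc1, the mannose receptor, at 1.095 ± 0.16 and Gas6, a ligand for uptake of dead cells, at 0.60 ± 0.10. Of 18 monocyte genes 6 rose and 7 fell, with Csf1r at 0.47 ± 0.10 among the rises. Of 16 goblet and gland genes Msln rose (1.39 ± 0.26) and Pigr, the transporter of secreted antibody, fell (-1.01 ± 0.25) together with Spdef. Of 22 fatty acid oxidation genes 8 rose, Slc25a20 by 0.54 ± 0.10, and 5 fell, Acadm by 0.33 ± 0.07 on the log2 scale. Of 20 immediate early genes Egr2 (1.399 ± 0.32), Atf3 (1.06 ± 0.31), Nr4a3 and Junb rose and Jun fell, while Fos and Egr1 were not called.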
